A study of Mus musculus with 3 samples.

Results

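The 10 genes described here are core or output genes of the circadian clock: the activators Arntl (also called Bmal1) and Clock, the repressors Per1, Per2, Cry1 and Cry2, the Rev-Erb receptors Nr1d1 and Nr1d2, and the PAR bZIP factors Tef and Dbp. They were chosen by name, as every probe set whose only gene symbol in the platform annotation was one of these, which gave 12 of the 12422 probe sets that are not controls and 10 of 8251 singly named genes. Signals came from 3 Affymetrix U74Av2 arrays, each with total RNA of the pooled neural retinas of 3 to 4 mice. All mice were Rp1 knockouts (Rp1-/-) on a mixed 129/SvEv and C57BL/6 background, killed at postnatal day 10, and every retina was taken from 1 to 2 pm. The 3 pools form 1 group and are named pool 1 to pool 3, with no order among them. No array of another genotype, age or time of day was analysed here, and the labels give no lighting schedule, so the values below describe 1 clock time in mutant retina and cannot place a gene on its daily peak or trough.

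The mammalian clock is a loop of transcription and translation. Arntl and Clock pair on E-box sequences and switch on Per and Cry genes, whose proteins return to the nucleus and block the pair, and the same E-boxes drive the Rev-Erb receptors, which repress Arntl, and the PAR bZIP factors, which pass the rhythm on through D-box sequences. The mouse retina holds its own clock, which has been found in several of its cell types and is known for daily rhythms of melatonin, dopamine and visual sensitivity. Because whole pooled retinas were measured, fewer cells of a type and less RNA per cell cannot be told apart. No probe set had Rp1, which encodes a microtubule-associated protein of photoreceptors, as its only gene symbol, so its transcript could not be read here.

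All 6 photoreceptor markers and all 3 markers each of Müller glia, bipolar, amacrine and ganglion cells lay above background in every pool. Their summed signals in pools 1, 2 and 3 were 66100, 82624 and 76940 for photoreceptors and 2362, 1578 and 2767 for bipolar cells. The sums were 9458, 7919 and 8894 for Müller glia, 7639, 8318 and 8388 for amacrine cells, and 4774, 4899 and 4790 for ganglion cells. Each sum mostly reflects its brightest genes, and single markers did not all share its order of pools. Examples are Crx (9534.7, 8344.9 and 7996.3), Rlbp1 (2014.4, 2832.0 and 3172.5) and Prkca (548.2, 413.2 and 331.7). The sums therefore do not measure how much of a cell type a pool held. The pools were not alike in other tissue. The summed signal of 6 lens genes was 43246, 10395 and 102138 in pools 1, 2 and 3. That of 2 haemoglobin genes was 20242, 12457 and 10306. For 5 pigment epithelium genes, 3 of them above background in every pool, the sum was 1110, 1164 and 2090. Xist, which silences an X chromosome in female cells, gave 69.5 in pool 1, under background, against 1384.4 and 1543.7 in pools 2 and 3. The title of the pool 1 array also lacks a genotype tag that the other titles carry, although its description names the same knockout. The 3′ to 5′ signal ratio of Actb, which rises as RNA degrades, was 1.10, 1.40 and 1.63, while that of Gapdh was 0.82, 0.90 and 0.75 and did not follow the same order. The part of these differences in any value below was not tested. Whether any animal gave tissue to more than 1 pool is not stated, so the SD over n = 3 covers the spread between these RNA samples.

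Of the clock genes, 9 were detected in all pools, and their signals were mostly steady from pool to pool. Background was set on each array by probe sets for bacterial and yeast transcripts, at 100.5, 124.8 and 120.4 signal units in pools 1, 2 and 3. A gene is called measured where the mean of its brightest probe set exceeded the mean of these floors, and 9 of 10 clock genes were, against 75.3% of 8251 genes. The same 9 genes were above the floor in all 3 pools, against 66.4% of genes. Per2 was under the floor in all 3. Each probe set binds its transcript with its own strength, so signals are compared between pools and not between genes.

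**Figure D1:**
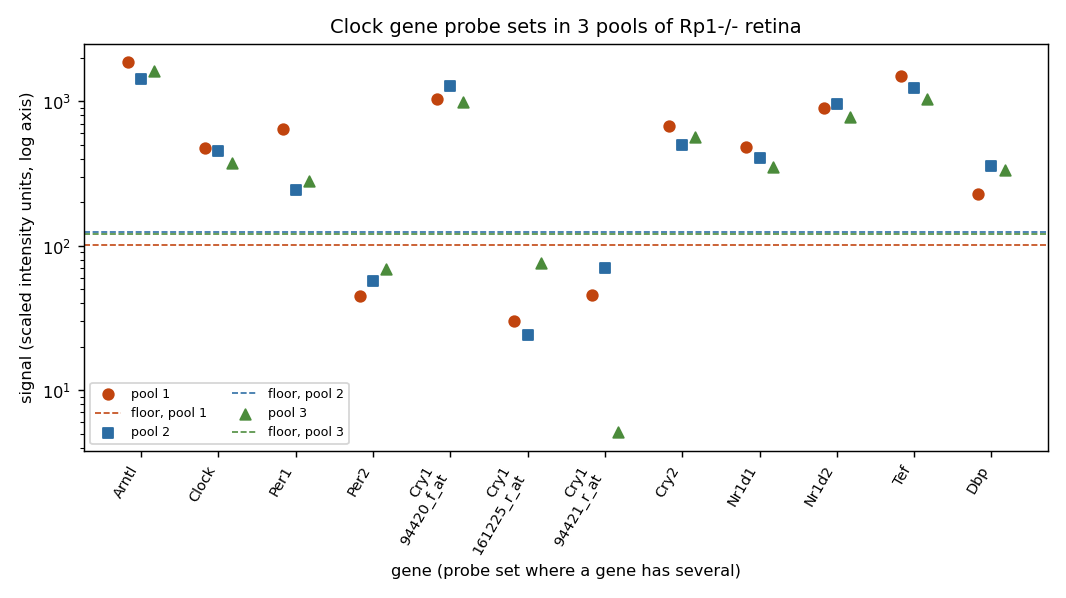
Signal of each of the 12 clock gene probe sets in the 3 pools (log axis, scaled intensity units), with the background floor of each array as a dashed line. The probe sets of 9 genes lie above the floors in every pool, while Per2 and 2 of the 3 Cry1 probe sets lie under them in every pool. Heights of different probe sets cannot be compared as amounts of transcript.

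The activators were present and steady. Arntl, the bHLH-PAS factor without which the mouse clock stops, had signals of 1855.4, 1416.3 and 1630.1 in pools 1, 2 and 3 (probe set 102382_at, mean 1634 ± 220, SD, n = 3). Pool 1 was highest and pool 2 lowest, a range of 1.31-fold. Its dimerisation partner Clock, which also acts as an acetyltransferase, had 471, 452.9 and 374.8 (92257_at, mean 432.9 ± 51.1). Here pools 1 and 2 lay close together, with pool 3 lowest, and the range was 1.26-fold. The order of the pools thus differed between the partners. Npas2, which can stand in for Clock, was under the floor everywhere, at 13.5, 10.7 and 10.6.

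Arntl is the classic target of the Rev-Erb and ROR receptors, and the annotated start region holds the core letters of their element. RefSeq promoter windows (GRCm38.p6, 250 bases before to 50 after an annotated start) were supplied for 9 of the 10 genes, in 14 windows, but not for Per2. The core, TAGGTCA on either strand, was found in 1 of 9 clock genes and in 2.97% of 27025 genes. It begins at base 31 after the start of the second Arntl window, shown in capitals (chr7:113207530-113207558, plus strand).
Arntl: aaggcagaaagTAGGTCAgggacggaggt

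Among the repressors, Per1 differed most between pools of all measured clock genes, and the cryptochromes differed little. Per1 encodes a protein that acts together with the cryptochromes, and its transcript also responds to light and cyclic AMP. It had signals of 638.4, 243.5 and 282.1 in pools 1, 2 and 3 (93619_at, mean 388.0 ± 217.7). Pool 1 stood alone at 2.62 times pool 2 and 2.26 times pool 3, whereas pools 2 and 3 were 1.16-fold apart. The SD on the log2 scale, 0.75, exceeded that of 96.5% of the 8327 measured probe sets. The test of variability asks whether the variance of a probe set over the pools exceeds what its signal predicts, and Per1 did not pass it (limma, adjusted p = 0.832). Without pool 1 its range was 1.16-fold. In pool 1 the haemoglobin sum was the highest of the 3 and Xist the lowest, while the lens sum was highest in pool 3, and their part in the Per1 difference was not tested.

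Per2, the other period gene of the core loop, was under the floor on every array, at 45.1, 57 and 68.6 (93694_at). It has only an upper bound here, and no fold is given. The array carries 1 probe set for it, so a weak probe set and a low transcript cannot be told apart.

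Cry1 and Cry2 encode the cryptochromes, which bind the Arntl and Clock pair and silence it. Cry1 had signals of 1028.7, 1273.7 and 987.2 by its brightest probe set (94420_f_at, mean 1097 ± 155). Pool 2 was highest and pools 1 and 3 lay 1.04-fold apart. That probe set is of the f class, whose probes can bind related transcripts. The other 2 Cry1 probe sets, both of the r class with probes chosen under relaxed rules, were under the floor in all pools, at 45.9, 70.2 and 5.1 (94421_r_at) and at 30.1, 24.2 and 75.4 (161225_r_at). The Cry1 level therefore rests on 1 of 3 probe sets. Cry2 had 673.3, 500.9 and 569.5 (97724_at, mean 581.2 ± 86.8), highest in pool 1, with a range of 1.34-fold. Its pools had the same order as those of Per1 and Arntl, and Cry1 did not. That order was found in 17.4% of the 6209 measured genes other than Per1.

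E-box letters stood in the start regions of several of these repressors, and they are shown because the E-box is where Arntl and Clock act. The forms searched were CACGTG (the E-box, its own reverse complement) and CACGTT with its reverse complement AACGTG (the E′-box). Capitals mark the matches. The Per1 stretch (chr11:69098745-69098824, plus strand) has an E-box whose first base lies 166 bases before the start. In Cry1 (chr10:85185082-85185161, minus strand) an E′-box at 79 bases and an E-box at 60 bases before the start stand side by side. Cry2 (chr2:92434194-92434273, minus strand) has an E′-box at 166 bases before its start.
Per1: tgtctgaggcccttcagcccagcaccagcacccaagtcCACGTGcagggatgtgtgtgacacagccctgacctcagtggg
Cry1: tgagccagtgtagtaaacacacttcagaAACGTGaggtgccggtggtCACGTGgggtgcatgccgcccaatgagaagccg
Cry2: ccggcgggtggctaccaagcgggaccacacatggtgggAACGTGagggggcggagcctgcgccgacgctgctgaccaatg

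The Rev-Erb receptors were detected in all pools, and both had their lowest signal in pool 3. Nr1d1 (Rev-Erb alpha), the haem-binding receptor that represses Arntl, had signals of 478.7, 407.6 and 349 in pools 1, 2 and 3 (98507_at, mean 411.8 ± 65.0). Pool 1 was highest and pool 3 lowest, 1.37-fold apart. Nr1d1 overlaps the thyroid hormone receptor gene Thra at one end in the genome, and which stretch its probes cover is not given in the sources used here. Nr1d2 (Rev-Erb beta), its close relative, had 899.6, 951.1 and 773.5 (99076_at, mean 874.7 ± 91.4). Pools 1 and 2 were 1.06-fold apart for Nr1d2, and pool 3 was lowest. The SD of Nr1d2, 0.15 on the log2 scale, was the smallest of the 9 measured clock genes. An E′-box begins 28 bases before the Nr1d1 start (chr11:98775378-98775457, minus strand).
Nr1d1: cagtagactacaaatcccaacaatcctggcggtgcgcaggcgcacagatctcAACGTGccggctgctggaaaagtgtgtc

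The PAR bZIP factors, which carry clock output to D-box genes, lay on opposite sides in pool 1, where Tef was highest and Dbp lowest, although neither passed the test. Tef had signals of 1505.1, 1226.5 and 1029.4 in pools 1, 2 and 3 (160117_at, mean 1254 ± 239), with pool 1 highest and a range of 1.46-fold. Dbp, a direct target of Arntl and Clock with one of the largest daily swings known in mammalian tissues, had 226.4, 354.6 and 335.5 (160841_at, mean 305.5 ± 69.2). Pool 1 was the lowest for Dbp, 1.57-fold under pool 2 and 1.48-fold under pool 3, while pools 2 and 3 were 1.06-fold apart. Dbp was the 1 measured clock gene of 9 that was lowest in pool 1. Both were higher in pool 2 than in pool 3. The adjusted p was 0.987 for Tef and 0.988 for Dbp (limma).

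Both Tef windows, which belong to 2 annotated starts, hold an E-box. It begins 127 bases before the first start (chr15:81802508-81802587, plus strand) and 138 bases before the second (chr15:81811238-81811317, plus strand).
Tef, first start: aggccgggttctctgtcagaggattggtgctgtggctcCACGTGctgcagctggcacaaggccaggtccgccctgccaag
Tef, second start: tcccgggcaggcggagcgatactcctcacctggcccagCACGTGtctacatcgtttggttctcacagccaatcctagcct

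Over the clock genes with a window, CACGTG was found in 3 of 9 (Per1, Cry1 and Tef), against 8.09% of 27025 genes. The E′-box was found in 3 of 9 (Cry1, Cry2 and Nr1d1), against 5.44%. The cyclic AMP response element TGACGTCA, present in the windows of 2.03% of genes, and the D-box TTATGTAA or its reverse complement TTACATAA, in 1.11%, were in 0 of 9. All were searched on both strands, and CACGTG cannot overlap an E′-box match. These are matches of letters within 300-base windows, known distant elements such as those of Dbp lie outside them, and no match says nothing of the factor. Genes with the E-box did not share an order of pools: Per1 and Tef were highest in pool 1 and Cry1 in pool 2.

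Set beside each other, 6 of 9 measured clock genes were highest in pool 1 and 3 in pool 2, and none in pool 3, where 34.6%, 33.6% and 31.8% of all measured genes were highest in pools 1, 2 and 3. The lowest signal fell in pool 3 for 5 genes, in pool 2 for 3 and in pool 1 for 1, against 32.5%, 32.6% and 34.9% of measured genes. On the log2 scale the median clock gene was 0.23 higher in pool 1 than in pool 2, 0.24 higher in pool 1 than in pool 3 and 0.22 higher in pool 2 than in pool 3. The medians of all 6210 measured genes for these pairs were -0.003, -0.002 and 0.008. Single differences between 2 pools have no replicate and no test. Pools 1 and 2 differed by more than 1.5-fold for 2 of 9 clock genes (Per1 up and Dbp down in pool 1), against 22.8% of measured genes. Pools 1 and 3 did so for 1 of 9 (Per1), against 21.3%, and pools 2 and 3 for 0 of 9, against 19.5%. The activators had medians of 0.22, 0.26 and 0.04 for these pairs, and the 7 other measured clock genes 0.23, 0.24 and 0.22. In the last pair the activators lay on opposite sides of 0, Arntl at -0.20 and Clock at 0.27, and the pairs share pools.

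**Figure D2:**
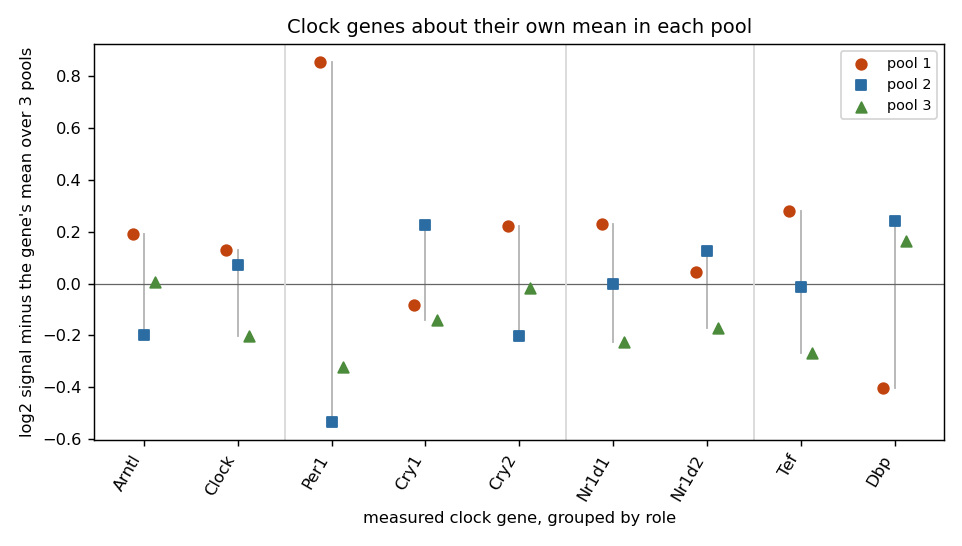
Log2 signal of the 9 measured clock genes in each pool, minus the gene's mean over the 3 pools, with grey bars from the lowest to the highest pool and vertical lines between the activators, the repressors, the Rev-Erb receptors and the PAR bZIP factors. Per1 in pool 1 stands 0.86 above its mean and Dbp in pool 1 lies at -0.41, while the other genes stay between -0.27 and 0.28.

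The spread of the clock genes between pools was close to that of other genes of like signal. Their median SD of log2 signal was 0.21, against 0.26 over all 6210 measured genes and 0.24 over the 3425 with a mean signal between those of the dimmest and the brightest clock gene. Of the 9 genes, 7 had an SD below the value fitted for their signal, and Per1 and Tef lay above it. The same share over all measured probe sets was not counted, so this count does not set the clock genes apart. The test of variability called 0 of 9 clock gene probe sets (limma, adjusted p from 0.832 to 0.996), against 0.216% of 8327 probe sets. At an unadjusted p under 0.05 it found 1 of 9 (Per1), against 5.34%.

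**Figure D3:**
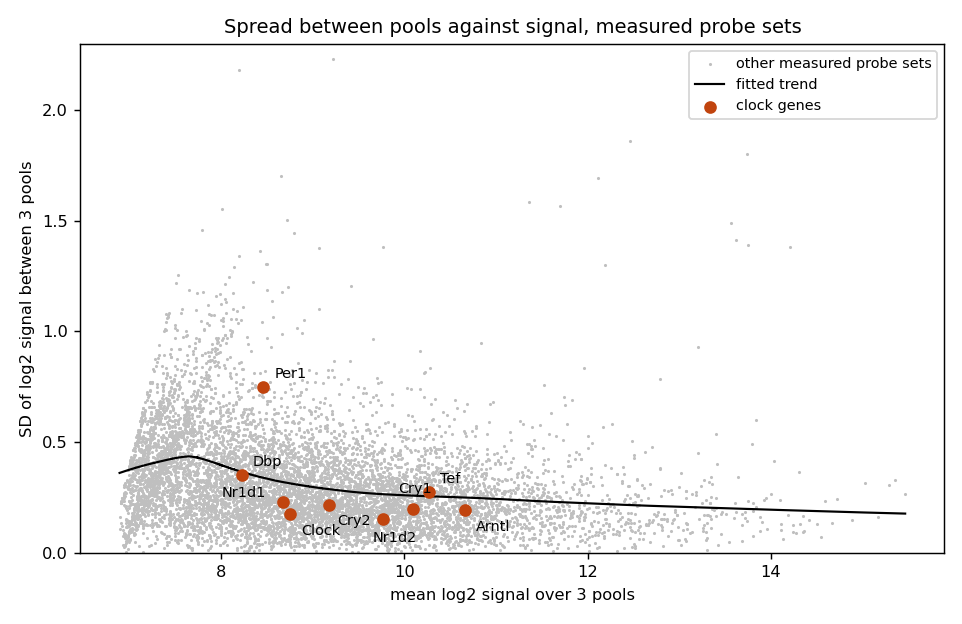
SD of log2 signal between the 3 pools against mean log2 signal for the 8327 measured probe sets (grey), with the trend fitted by limma (line) and the 9 clock genes (red). Per1, with an SD of 0.75 where the trend is 0.34, is the clock gene farthest above the line, and the others lie on or under it except Tef, at 0.27 against 0.26.

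Most of the other loop factors with a probe set were detected, Npas2 being the exception, and none of these genes passed the test. Of 11 listed factors 6 had a probe set and 5 of these were measured, against 75.3% of 8251 genes. The median SD of log2 signal of these 5 was 0.34, against 0.26 over all measured genes. Rora, a receptor that activates Arntl through the element the Rev-Erbs occupy, had 734.9, 975 and 1088.6 in pools 1, 2 and 3 (101889_s_at), lowest in pool 1. A second Rora probe set was under the floor in all pools, at 38.5, 67.1 and 34.7. Per3, the third period gene, had 298.8, 325.6 and 465, with pool 3 highest, unlike Per1. Nfil3, which represses through the D-box that Tef and Dbp activate, had 380.7, 398.5 and 261.1 (101805_f_at), while a second probe set read 173.7, 176.5 and 191.5, with pool 3 highest instead of lowest. Bhlhe40 (Dec1), an E-box repressor, had 140, 124.9 and 232.6 and the largest SD of the list, 0.48. Its pool 2 signal lay barely above that array's floor of 124.8. For all 5 measured genes the adjusted p lay from 0.987 to 0.997 (limma), where 0.216% of 8327 probe sets passed. An unadjusted p under 0.05 was found for 0 of 5, against 5.34% of probe sets.

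The enzymes and partners that act on clock proteins included Csnk1d, whose pools had the order of Per1. Of 17 listed genes 12 had a probe set and 11 of these were measured, against 75.3% of 8251 genes. All 11 were above the floor in every pool, and 0 of 11 passed (limma), against 0.216% of 8327 probe sets. At an unadjusted p under 0.05 there was 1 of 11, Csnk1d, against 5.34% of probe sets. Csnk1d (casein kinase 1 delta, which phosphorylates the period proteins) had 3381.2, 1686.9 and 2132.9 (97263_s_at), highest in pool 1 with a range of 2.00-fold and the largest SD of the list, 0.51 (limma, adjusted p = 0.832). Nono, an RNA-binding partner of the period proteins, had 2910.4, 3286.5 and 2996.5 (93830_at), a range of 1.13-fold with pool 2 highest. A second measured Nono probe set read 661.1, 491.3 and 548.6 (93831_at), a range of 1.35-fold with pool 2 lowest instead. Ppp1cb, a catalytic subunit of protein phosphatase 1, had 1344.1, 2057.2 and 1851, lowest in pool 1. The median SD of the list was 0.22.

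Most genes of clock input and output in the retina had lower signals in pool 1 than in pool 3, 3 of 9 by more than 1.5-fold. Of 16 listed genes 10 had a probe set and 9 of these were measured, against 75.3% of 8251 genes. The floor of every array was cleared by 7 of the 10, against 66.4% of genes. The median of pool 1 minus pool 3 was -0.28 on the log2 scale, against -0.002 over all measured genes. By deposited signals 8 of 9 genes were lower in pool 1, and Vip (119 against 109.9) was the exception, which counts as lower only once its pool 3 signal is raised to the floor. With the floor, 50.1% of all measured genes were lower in pool 1. The difference exceeded 1.5-fold for 3 of 9, against 10.4% of measured genes. For pool 1 minus pool 2 the list median was -0.43, with 6 of 9 genes lower in pool 1 and 3 higher. For pool 2 minus pool 3 it was 0.07, with 5 of 9 higher in pool 2 and 4 lower. In these pairs 4 of 9 and 2 of 9 differed by more than 1.5-fold, against 22.8% and 19.5% of measured genes. None passed the test (limma, lowest adjusted p of 0.987, 0 of 9 at an unadjusted p under 0.05), against 0.216% and 5.34% of 8327 probe sets. Drd4, a dopamine receptor of photoreceptors with a nightly peak, had 587.1, 567.3 and 609.3, a range of 1.07-fold. Drd2, the dopamine autoreceptor, had 338.2, 323 and 350.3. Aanat, the enzyme that sets melatonin synthesis, had 298.3, 177.5 and 367.5 (92512_g_at), and a second probe set was under the floor everywhere. Th (tyrosine hydroxylase, the rate-limiting enzyme of dopamine synthesis) had 135.7, 324 and 237 and the largest SD of the list, 0.64. The pool 1 signal of Th lay not far above that array's floor of 100.5.

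**Figure D4:**
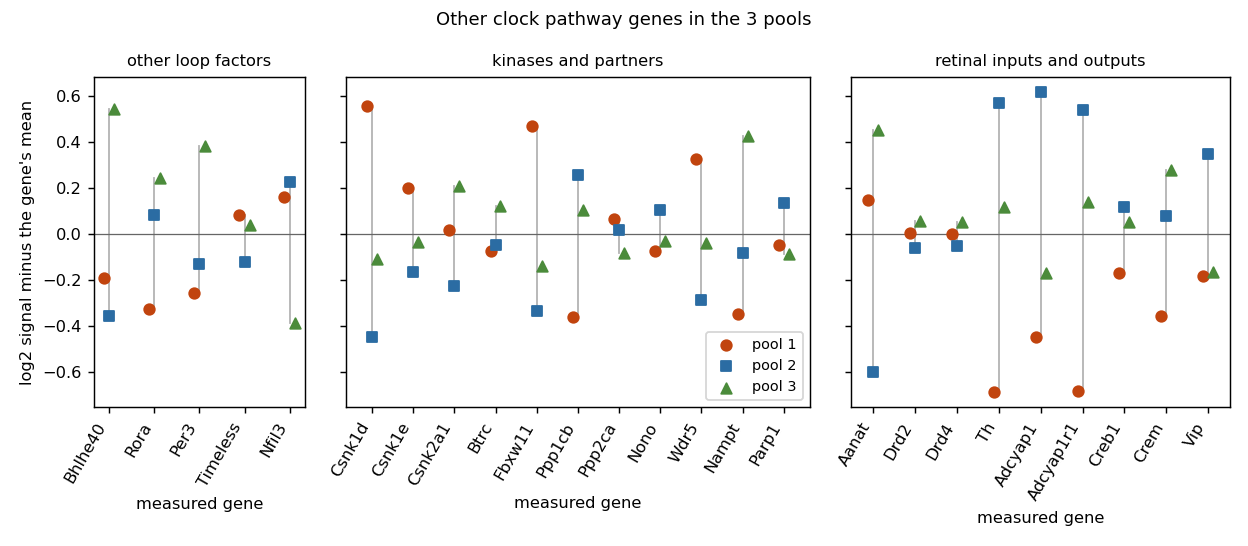
Log2 signal of the measured genes of the 3 other clock lists in each pool, minus the gene's mean over the 3 pools, with signals under an array's floor set to the floor. Csnk1d is highest in pool 1 and Th highest in pool 2, with ranges of 2.00-fold and 2.39-fold, while Drd2 and Drd4 stay within 1.09-fold.

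The genes whose pattern over the 3 pools was most like that of Per1 were Krt36, Tiam1 and Ltbp4. Likeness was the Euclidean distance between log2 signals centred on their mean over 3 pools, taken over 6209 other measured genes. Krt36, a keratin, had 831.7, 322 and 386, at a distance of 0.051, from a probe set of the r class. Tiam1, an activator of the small GTPase Rac, had 563.5, 226.3 and 243.5, and Ltbp4, a binding protein of latent TGF-beta, had 318, 125.6 and 134.9, both at 0.077. The Ltbp4 signals in pools 2 and 3 lay close to the floors of 124.8 and 120.4. A total of 27 genes lay within 0.25 of Per1, and with 3 pools such likeness is a description.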

How the data were processed

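Per the labels, each of the 3 arrays was hybridised with total RNA of 1 pool of retinas. The deposited table gives 1 intensity per probe set on a linear scale. Which software and background method made them is not given in the sources used here. Trimmed means of the deposited intensity values (2% removed at each end) were all 500.3, so no further scaling was applied. Of 12488 probe sets, 66 controls were set apart, and 10833 had 1 gene symbol, of which 10817 were updated through their gene identifiers (assembly GRCm38.p6).

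Each array's floor was set from the 19 control probe sets for bacterial and yeast transcripts (the 90th percentile). Signals under it were set to it before log2 was taken. The brightest probe set stood for a gene. Variability was tested in R 4.3.3 with limma 3.58.1, as an intercept-only fit to the 8327 measured probe sets, a robust F fit of the residual variances with an intensity trend, the upper tail p and Benjamini-Hochberg adjustment over all of them at 0.05. The script was tested on simulated data for whether large changes were called. That check does not tell how often differences as small as those of the clock genes are missed. Python 3.11.15 with pandas 2.3.3, numpy 2.4.6, scipy 1.17.1 and matplotlib 3.10.9 did the rest. Precision is limited by the number of arrays.

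The clock genes and the lists were chosen with earlier results of these data known. Outside the 10 clock genes, those named were, per list, the 3 measured genes of highest mean signal, the 1 with the largest SD, and the 3 most like the clock gene with the largest SD. Npas2, Vip and Thra fall outside this rule, as do the marker genes and Xist, and the genes of the closing section were chosen after their values were seen. Alternatives were another floor, a pseudocount of 50, 2 other scalings, 2 filters, the mean of a gene's probe sets, 2 other variance fits and leaving out each pool.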

Additional observations from a re-analysis of the deposited data

How the results depend on the processing

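In all 12 alternatives of the variability test, 0 clock gene probe sets passed (limma), with 1 at an unadjusted p under 0.05 in each except without pool 1, where there was 0, and the adjusted p of Per1 lay between 0.602 and 0.995. Over all probe sets the same alternatives called 0 to 52 in place of 18, with 0 when no intensity trend was fitted, 6 with an ordinary fit, 11 with log2(signal + 50), 52 with no filter on dim probe sets and from 4 to 40 when a pool was left out. The number of clock genes measured stayed at 9, or rose to 10, with Per2, when the floor was the median control or no filter was used. Their median SD ran from 0.158 to 0.233, the pair medians from 0.144 to 0.258, 0.213 to 0.242 and 0.152 to 0.224. Ranges of single genes moved by more than 1 SD in 8 of 99 values, each when a pool was left out. No paired analysis was possible because the 3 arrays form 1 group. Signal over background limits Per2, which has only a bound here.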

Other observations

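The Csnk1d probe sets were read further because the gene shared the pool order of Per1, as did 4 of the 11 measured genes of its list (Csnk1d, Csnk1e, Fbxw11 and Wdr5) and 17.4% of the 6209 other measured genes. Beside the one reported above, 2 more measured Csnk1d probe sets were also highest in pool 1 and lowest in pool 2, at 2742, 1993.9 and 2113.3 (97262_at) and at 383.8, 87.4 and 198.9 (97264_r_at, under the floor in pool 2). One more, 162001_f_at, was not measured and ran the other way, at 59, 138.4 and 135.2. None passed the test (limma, adjusted p of 0.988 for 97262_at and 0.966 for 97264_r_at). Fbxw11, a ubiquitin ligase subunit that targets period proteins, was likewise highest in pool 1 and lowest in pool 2, at 1216.6, 699.1 and 800.4 by one probe set and 961.9, 812.9 and 911.3 by another (limma, adjusted p of 0.987 and 0.996).

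The PACAP gene Adcyap1, a transmitter of the ganglion cells that signal light to the brain clock, had 144.3, 301.7 and 175.3 in pools 1, 2 and 3. Its receptor Adcyap1r1 had 30.9, 233.9 and 177.5, with pool 1 under the floor, and a second receptor probe set was under the floor in all pools. Both were highest in pool 2 and lowest in pool 1, as were Th, Dbp and Ppp1cb. The share of all measured genes with that order was not counted. Neither Adcyap1 nor Adcyap1r1 passed the test (limma, adjusted p = 0.987 for both).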
